A study of Rattus norvegicus with 8 samples.

Results

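Iron uptake, storage and heme breakdown were followed in rat blood through 7 genes: Tfrc, Slc11a2, Slc25a37, Ireb2, Fth1, Hmox1 and Blvra. Probe sets, which are groups of short probes against one transcript, were taken when the platform annotation gave a single gene symbol equal to one of these names. That rule found 8 of the 31042 probe sets on the arrays, covering 6 of the 7 genes. Fth1, the heavy chain of ferritin, has no probe set annotated to it alone, and no value is given for it. The 1 probe set that lists Fth1 also lists another symbol.

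The high-fat group was 4 male Wistar rats fed Quick fat for 8 weeks, and the normal group was 4 male Wistar rats fed CE-2 for the same time. All had been bought at 7 weeks of age, acclimated on CE-2, and bled on day 56 after a night without food. The labels describe 10 rats per diet, and 4 arrays of each of these 2 diets were used. A further arm of the study, a high-fat diet with mulberry leaf, is not analysed here. Blood was lysed whole, with no cell sorting, and total RNA was labelled for 3' expression arrays.

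Cells take up iron bound to transferrin through the transferrin receptor, move it out of the endosome through a divalent metal transporter, and pass it to the mitochondrion for heme or store it in ferritin. Iron regulatory proteins bind hairpins in the messenger RNAs of these genes, and when iron is short they protect the receptor message and hold back ferritin translation. Red cell precursors import most of the iron used for hemoglobin, whereas macrophages and monocytes break heme down with heme oxygenase and biliverdin reductase. A whole blood sample mixes the cell types that circulate, so fewer cells of a type and less RNA per cell cannot be told apart.

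Blood cell markers were mostly bright, with exceptions. Hbb, a globin chain, had a mean deposited level of 15.09, the monocyte and granulocyte lysozyme Lyz2 13.22 and the platelet chemokine Pf4 12.82. The 75th percentile of all probe sets, 7.13, was exceeded by 10 of 13 red cell precursor, 7 of 11 monocyte, 7 of 8 T cell, 4 of 4 B cell and 5 of 6 platelet markers, but by 3 of 8 neutrophil markers. The neutrophil markers had a median of 6.58, close to the 6.46 of the liver markers, of which 0 of 6 exceeded that percentile. They were uneven, however, with S100a9 at 11.59, S100a8 at 10.19 and Csf3r at 7.89, and the lowest, Lcn2, at 5.95. Deposited values read as log2 intensities from 5.19 to 15.25, but a probe set hardly differed between animals: its SD over the 8 arrays had a median of 6.07 millionths of a log2 unit and a 99th percentile of 413 millionths. Such differences are not log2 ratios of RNA amount, so no fold changes are given. Values of single animals are therefore given below as deviations from the mean of the 8 arrays, in millionths of a deposited log2 unit. Diet differences are high-fat minus normal, in millionths, and are also divided by the SD pooled over both groups, which gives them in within-group SDs.

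None of the 8 probe sets passed the test for a difference between the diets. By limma, 0 passed an adjusted p of 0.05, against 0.0% of all 31042 probe sets, and every one of the 8 had an adjusted p of 1.0. In 0 of the 8 did the high-fat values lie entirely above or below the normal values, where 1.44% of all probe sets did. By sign, 6 stood higher in high-fat blood and 2 lower. Of all probe sets, 46.6% were higher. The median difference of the 8 was 1.07 within-group SDs, against -0.0479 over all probe sets. Ireb2 was the 1 probe set of the 8 that was higher with an unadjusted limma p under 0.05, a criterion met by 0.95% of all probe sets, and its exact permutation p was 0.114.

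Of the 8 probe sets, the 6 that stood higher turned lower when each array was centred on its median. The column medians of 7 arrays lay between -73.6 and 8.28 millionths of their middle value, and that of high-fat replicate 4 was 143.5 above it. Centring each array on its median moved every difference by -66.0 millionths, which is more than the difference of each of the 8 probe sets. After it 0 of the 8 were higher in the high-fat group, as were 1.63% of all probe sets, where 46.6% had been higher before. The shift is larger than the SD over the 8 arrays of most probe sets (median 6.07 millionths). With so small an SD, most probe sets did not themselves carry an offset of 143.5 in high-fat replicate 4. Nearly all probe sets thus stood lower together after centring, and the change is not particular to these 8. Their signs after centring were set by the shift, so they are not a result about these genes.

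The position of each gene among all probe sets of the arrays is a position in signal and not an order of RNA amounts, because probes bind with different strength. Slc25a37, the mitochondrial iron carrier mitoferrin, had the highest level of them, 8.5, above 95.6% of probe sets. The brighter probe set of the transferrin receptor Tfrc had a level of 7.67, above 87.9% of probe sets, and its dimmer one 6.28, above 29.3%. Biliverdin reductase A, Blvra, stood at 7.43, above 83.4% of probe sets, and heme oxygenase, Hmox1, at 7.29, between Blvra and Slc11a2. The metal transporter Slc11a2 stood at 6.81 and 6.77 on its probe sets, above 61.4% and 59.6%. Ireb2, an iron regulatory protein, stood at 6.46, above 41.2% and below the median of all probe sets, 6.60. Each of these levels was the same in both diets to 2 decimals.

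Spread between animals differed widely among the genes. Blvra had an SD over the 8 arrays of 800.5 millionths, wider than 99.4% of all probe sets and wider than 98.6% of those in the same decile of level. Slc25a37 (42.7 millionths), Hmox1 (29.6) and the brighter Tfrc probe set (22.0) were wider than 91.3%, 87.6% and 83.6% of all probe sets. Against probe sets in the same decile of level, these shares were 63.4%, 84.1% and 70.1%. Ireb2 (7.40) and the dimmer Tfrc probe set (5.44) lay near the middle, and Slc11a2 was among the narrowest, with 1.45 and 1.06 millionths, wider than 11.1% and 7.15% of probe sets.

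**Figure D1:**
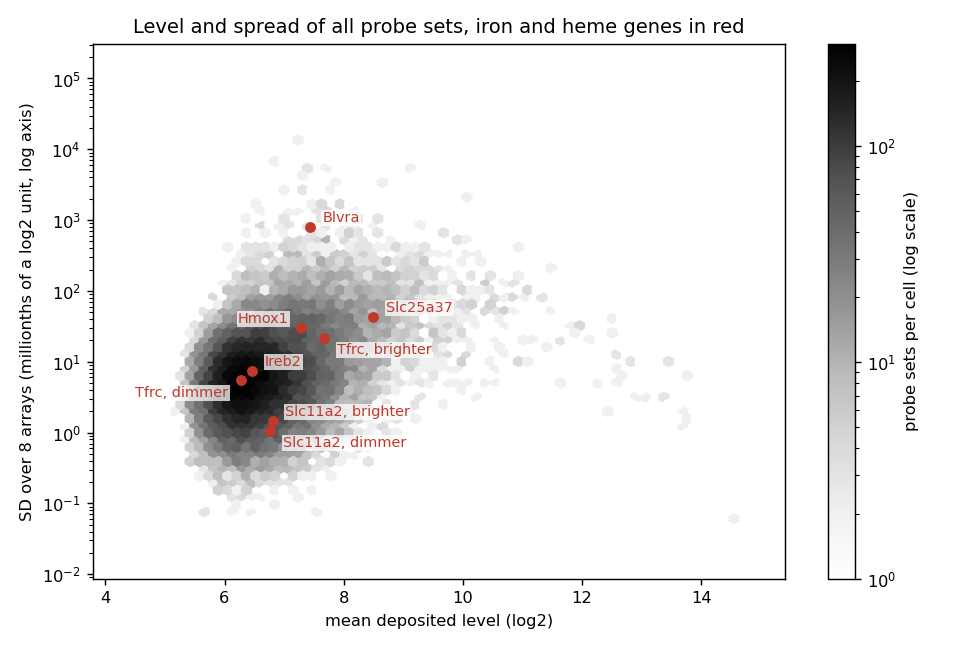
Mean deposited level (log2, horizontal axis) against the SD over the 8 arrays (millionths of a log2 unit, logarithmic vertical axis) for all probe sets as grey cells, darker where more probe sets fall, with the 8 iron and heme probe sets in red. Blvra lies near the top of the cloud at 800.5 millionths and the 2 Slc11a2 probe sets near the bottom at 1.45 and 1.06.

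Iron import begins with Tfrc, which is on the arrays through 2 probe sets. On the brighter one, high-fat animals 1 to 4 stood at -5.47, 27.6, 37.0 and -12.9 millionths, and normal animals 1 to 4 at 6.72, -11.9, -25.3 and -15.7. High-fat animals 2 and 3 lay above all others, while high-fat animals 1 and 4 lay among the normal animals. The difference was 23.1 ± 13.1 millionths (SE, n = 4 and 4; 95% interval -8.18 to 54.3), or 1.17 within-group SDs, with a limma adjusted p of 1.0. Leaving out high-fat replicate 3 gave 14.6 and high-fat replicate 4 31.2. On the dimmer one the high-fat animals stood at 1.19, 7.95, 5.98 and -2.70 millionths and the normal animals at 0.934, -3.24, -9.37 and -0.743. High-fat replicate 4 was again lower than some normal animals, and the other high-fat animals lay above every normal one. The difference was 6.21 ± 3.19 millionths (SE; 95% interval -1.39 to 13.8), or 1.33 within-group SDs, and 4.12 without normal replicate 3.

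Both Tfrc probe sets had a similar pattern over the animals, though not the same order. Each probe set was given a scaled level, its deviation in every animal divided by its SD over the 8 arrays. On that scale the pair differed by 0.335 SDs on average over the animals. To the dimmer one, 0.0902% of all probe sets were closer than that. Over the 9597 pairs of probe sets that share a gene on these arrays, the median was 0.98, and 1.78% were as close as the Tfrc pair. Leaving out each animal in turn gave distances of 0.282 to 0.379 for the Tfrc pair, with 0.113% to 0.499% of probe sets closer.

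**Figure D2:**
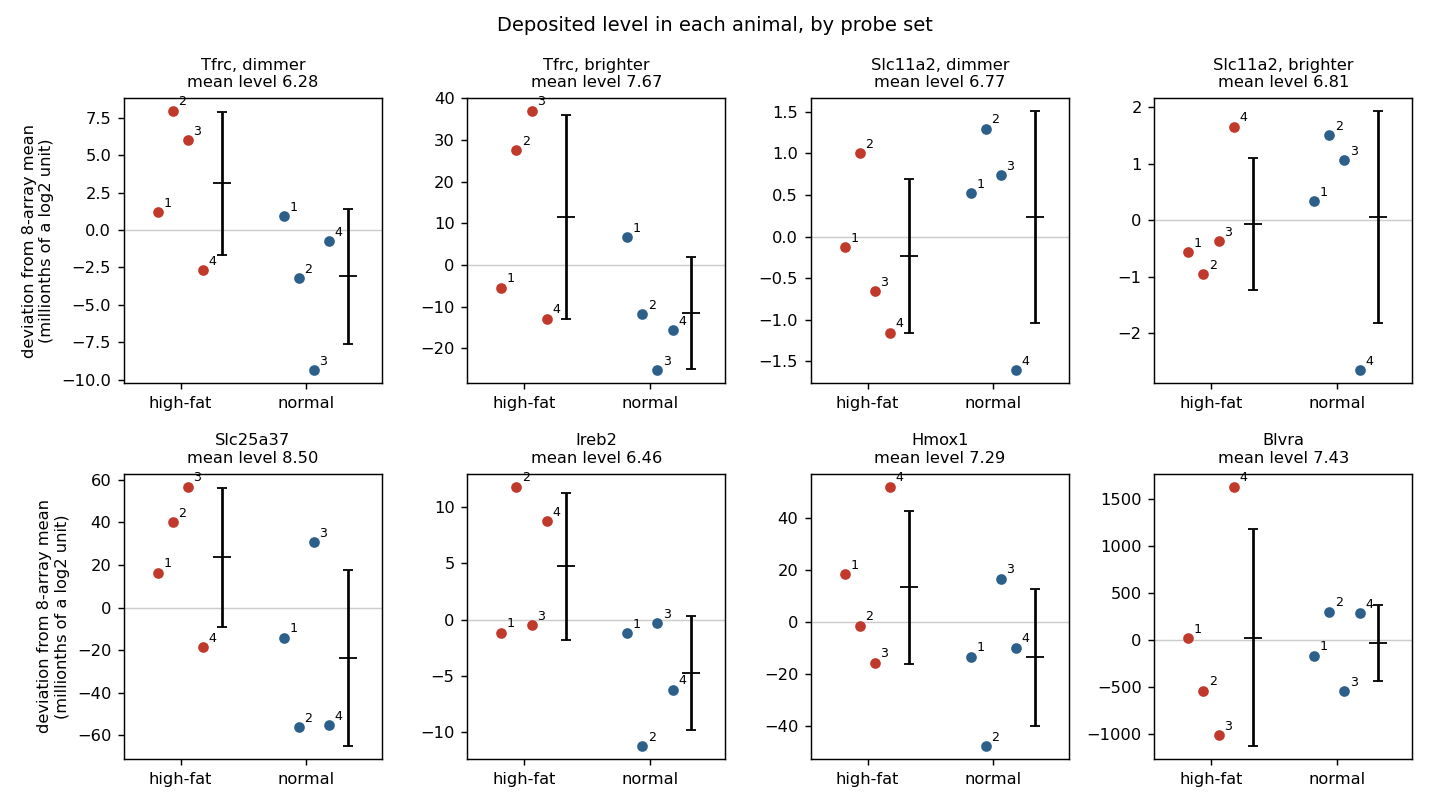
Deviation of each animal from the 8-array mean (vertical axis, millionths of a log2 unit, a separate scale for each panel) for the 8 probe sets, high-fat animals in red at left and normal animals in blue at right, numbered by replicate, with bars for the group mean ± SD (n = 4 each). The groups overlap in all 8 panels, and high-fat animal 4 is the highest animal for Hmox1, Blvra and the brighter Slc11a2 probe set. It is the lowest high-fat animal for both Tfrc probe sets, Slc25a37 and the dimmer Slc11a2 probe set.

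The transcription start of Tfrc is shown because hypoxia-inducible factors are known, from human cells, to act on this gene through a site close to its start. The 80 bases before the start, from RefSeq on build GRCr8 at chr11:81690319-81690398, minus strand, read 5′ to 3′, with capitals marking ACGTG, the core letters of such sites, on the printed strand:

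Tfrc: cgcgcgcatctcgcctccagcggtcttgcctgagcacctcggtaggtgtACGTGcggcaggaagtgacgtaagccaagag

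The match begins 31 bases before the start, and it was the 1 match to ACGTG, searched on both strands, in the 250 bases before the Tfrc start. Among 33469 such windows of the rat annotation, 16.6% hold ACGTG on either strand. RefSeq windows were found for 4 of the 7 genes, in 5 windows, and the same 250 bases of Slc11a2, Ireb2 and Blvra held 0 matches. The Slc11a2 window with the lower coordinates held 4 matches to CCGCCC (the GC box) and 2 to CCAAT, found in 30.5% and 34.0% of all windows. The other Slc11a2 window held 0 of either. Ireb2 held 2 matches to CCGCCC and 0 to CCAAT, and Tfrc and Blvra each held 0 and 1. A match is a run of letters and was not tested as a binding site, and none of these genes passed the test for diet.

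Slc11a2, which carries ferrous iron out of the endosome and across the gut lining, barely varied. Its brighter probe set stood at -0.570, -0.952, -0.375 and 1.66 millionths in high-fat animals 1 to 4 and at 0.335, 1.51, 1.06 and -2.66 in normal animals 1 to 4. Both ends of the range were set by animals numbered 4, and the groups overlapped throughout. The difference was -0.120 ± 1.29 millionths (SE, n = 4 and 4; 95% interval -3.20 to 2.96), or -0.0769 within-group SDs. On the dimmer one the high-fat animals stood at -0.130, 1.00, -0.660 and -1.16 millionths and the normal animals at 0.524, 1.30, 0.738 and -1.61. The difference was -0.475 ± 1.07 millionths (SE; 95% interval -3.01 to 2.06). The scaled levels of the pair differed by 0.659 SDs on average, which 15.9% of same-gene pairs matched or bettered.

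Inside the mitochondrion, Slc25a37 imports the iron that is built into heme, and it is abundant in red cell precursors. High-fat animals 1 to 4 stood at 16.4, 40.1, 56.8 and -18.5 millionths and normal animals 1 to 4 at -14.1, -56.1, 30.7 and -55.3. High-fat animals 2 and 3 were the highest, normal animal 3 came next, and high-fat animal 4 lay below normal animal 1. The difference was 47.4 ± 24.8 millionths (SE, n = 4 and 4; 95% interval -11.5 to 106), or 1.27 within-group SDs, with a limma adjusted p of 1.0. Leaving out 1 animal gave 36.3 (high-fat replicate 3) to 65.5 millionths (normal replicate 3), and 61.4 with high-fat replicate 4 left out.

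Ireb2 encodes an iron regulatory protein that is degraded when iron is plentiful. High-fat animals 1 to 4 stood at -1.14, 11.8, -0.472 and 8.71 millionths and normal animals 1 to 4 at -1.21, -11.2, -0.308 and -6.20. High-fat animals 2 and 4 were above all others. High-fat animals 1 and 3 and normal animals 1 and 3 lay within 1 millionth of each other, and normal animals 2 and 4 were lowest. The difference was 9.46 ± 3.95 millionths (SE, n = 4 and 4), or 1.62 within-group SDs, the widest of the 8 probe sets on that scale. Its 95% interval, 0.0559 to 18.9 millionths, was the 1 of 8 that did not include 0 before adjustment, and the limma adjusted p was 1.0. Without normal replicate 3 the groups no longer overlapped, as in 4.86% of all probe sets under the same omission.

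**Figure D3:**
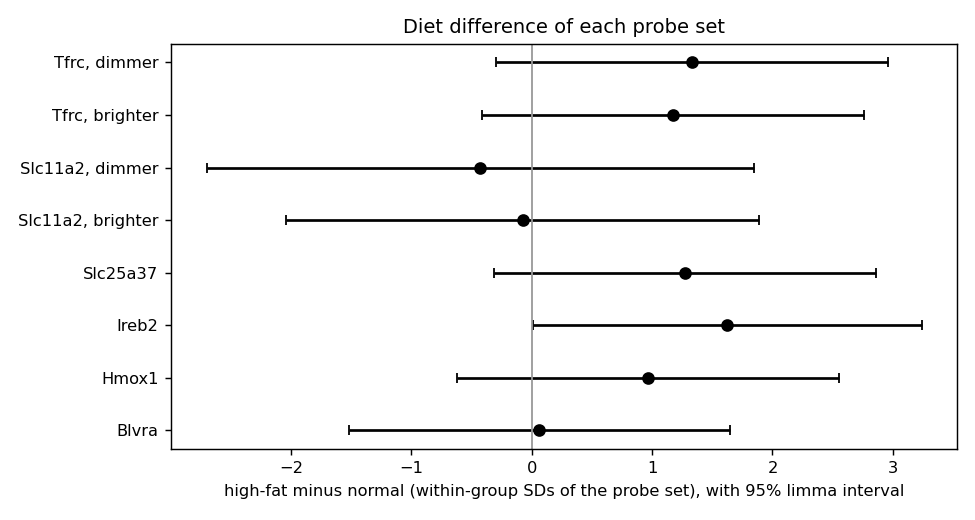
High-fat minus normal difference of each probe set (horizontal axis, within-group SDs) with its 95% limma interval (bars, n = 4 and 4, before adjustment). The intervals of 7 probe sets include 0, and that of Ireb2 starts just above it.

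Heme breakdown was read through Hmox1, the inducible oxygenase that opens the heme ring and frees its iron, and Blvra, which turns the product biliverdin into bilirubin. Hmox1 stood at 18.6, -1.37, -15.6 and 52.3 millionths in high-fat animals 1 to 4 and at -13.3, -47.7, 16.8 and -9.75 in normal animals 1 to 4. High-fat animal 4 was the highest and normal animal 2 the lowest, with the other 6 mixed between them. The difference was 27.0 ± 18.6 millionths (SE, n = 4 and 4; 95% interval -17.3 to 71.3), or 0.965 within-group SDs, with a limma adjusted p of 1.0. Without high-fat replicate 4 it was 14.0, and without normal replicate 2 15.6.

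Blvra stood at 20.3, -535.5, -1011 and 1636 millionths in high-fat animals 1 to 4 and at -164.3, 305.8, -541.6 and 290.4 in normal animals 1 to 4. The highest and the lowest animal were both on the high-fat diet. The SD was 1152 millionths among high-fat animals and 406.3 among normal ones, and this difference in spread was not tested. Without high-fat replicate 4 the SD of the other high-fat animals was 516.3, and that over 7 arrays was 487.4, still wider than 99.3% of probe sets. The difference between diets was 54.9 ± 574.6 millionths (SE, n = 4 and 4; 95% interval -1313 to 1423), or 0.0636 within-group SDs. Without high-fat replicate 4 it was -481.4, and without normal replicate 3 -116.5.

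Levels of blood cell markers differed between the same animals. The 11 measured monocyte markers had a mean scaled level of -0.24, -0.39, -0.38 and 1.81 in high-fat animals 1 to 4 and of -0.33 to -0.06 in the normal animals. In high-fat blood 9 of them (81.8%, against 47.4% of all genes) stood higher and 2 lower, with 0 past the adjusted p. That count leans on high-fat animal 4. The list level of each other high-fat animal lay below the mean of the normal animals, -0.20. The deposited levels of these markers ran from 6.53 for Ccr2 to 13.22 for Lyz2, with 7 of 11 above the 75th percentile of all probe sets. Cx3cr1, the chemokine receptor with the smallest p among them, stood 0.840 within-group SDs above normal. High-fat animal 4 was the highest animal for the mean of the monocyte markers, Hmox1, Blvra and the brighter Slc11a2 probe set alike. The marker Ms4a7 was an exception, at -1.95 millionths in that animal and highest in normal animal 3, at 3.85. The 13 measured red cell precursor markers had a mean scaled level of 0.80, 0.01, 0.62 and -0.61 in the high-fat animals and of -0.37, -0.31, 0.04 and -0.19 in the normal animals. High-fat animal 4 was the lowest of the 8 there. Of these markers 8 were higher (61.5%), 4 lower and 1, Hbb, equal to within 1e-06 millionths, with 0 past the adjusted p. The SD of Hbb over the 8 arrays was 0.00535 millionths. Scaling gives this very small spread the same weight in the list mean as that of each other marker. The number higher was 5 of 13 after centring, and 7 to 11 when 1 animal was left out, with 11 without high-fat replicate 4. Their levels ran from 6.44 for Sptb to 15.09 for Hbb, with 10 of 13 above that percentile. Hemgn, found in the nuclei of hematopoietic cells, had the smallest p and stood 2.63 within-group SDs above normal (limma adjusted p of 1.0).

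Blvra followed the monocyte markers across the animals more closely than most transcripts did. For such distances the mean scaled level of a list was itself divided by its SD over the 8 arrays. The scaled level of Blvra differed from that of the marker list by 0.394 SDs on average, and 0.921% of all probe sets were closer (median of all, 1.09). With high-fat animal 4 left out the distance was 0.319 and 0.232% of probe sets were closer, and over the omission of each animal the share ran from 0.232% to 1.47%. Of the 11 markers, 9 were among the closest 10% of probe sets to Blvra, and 5 without high-fat animal 4. The nearest, singled out after their values were seen, were the Fc receptor Fcgr3a (0.170 SDs) and the lysosomal protein Cd68 (0.178). Hmox1 was at 0.597 SDs from the monocyte list, with 3.72% of probe sets closer, but without high-fat animal 4 the distance was 1.40 and 84.0% were closer. The brighter Slc11a2 probe set was at 0.793 SDs from that list (11.1% closer) and Ireb2 at 0.844 (14.7%). Without high-fat animal 4 they were at 0.963 (34.8%) and 1.43 (86.6%). These are descriptions over 8 arrays, and the part of monocyte number in these genes was not tested.

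Slc25a37 lay at 0.712 SDs from the red cell precursor markers, with 11.9% of probe sets closer, and at 0.663 from the liver markers (17.2%). Over all 8 arrays it was the nearest of the 6 genes to the red cell list, but without normal replicate 3 the dimmer Tfrc probe set was nearer (0.661, against 0.700 for Slc25a37). Leaving out each animal gave 8.90% to 25.6% for Slc25a37, the highest without high-fat replicate 3. The brighter Tfrc probe set was at 0.859 (24.9%), the dimmer one at 0.848 (23.7%), Hmox1 at 0.967 (36.6%), and Blvra at 1.40 (84.0%). The Tfrc shares ran from 11.7% (without high-fat replicate 1) to 50.5% (without high-fat replicate 3) for the brighter probe set and from 13.0% (without normal replicate 3) to 34.9% for the dimmer one. The dimmer Tfrc probe set was as near to the platelet markers (0.848, 19.9%) and nearer to the T cell markers (0.813, 23.1%). Among single red cell markers the one nearest to Slc25a37 was Slc4a1, which exchanges chloride and bicarbonate, at 0.419 SDs with 0.686% of probe sets closer (0.351% to 3.42% when 1 animal was left out, the highest without normal replicate 2), again singled out after its value was seen. Slc25a37 lay at 0.663 SDs from the brighter Tfrc probe set and 0.724 from the dimmer one. It was as near to Ireb2 (0.723), and lay at 0.840 and 1.13 from the Slc11a2 probe sets and 0.851 from Hmox1. Its distance to Blvra, 1.49, was the widest of all pairs among the 8 probe sets. Hmox1 lay at 0.621 from Ireb2, a distance that 2.25% of probe sets undercut from Ireb2, and at 0.801 from Blvra.

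**Figure D4:**
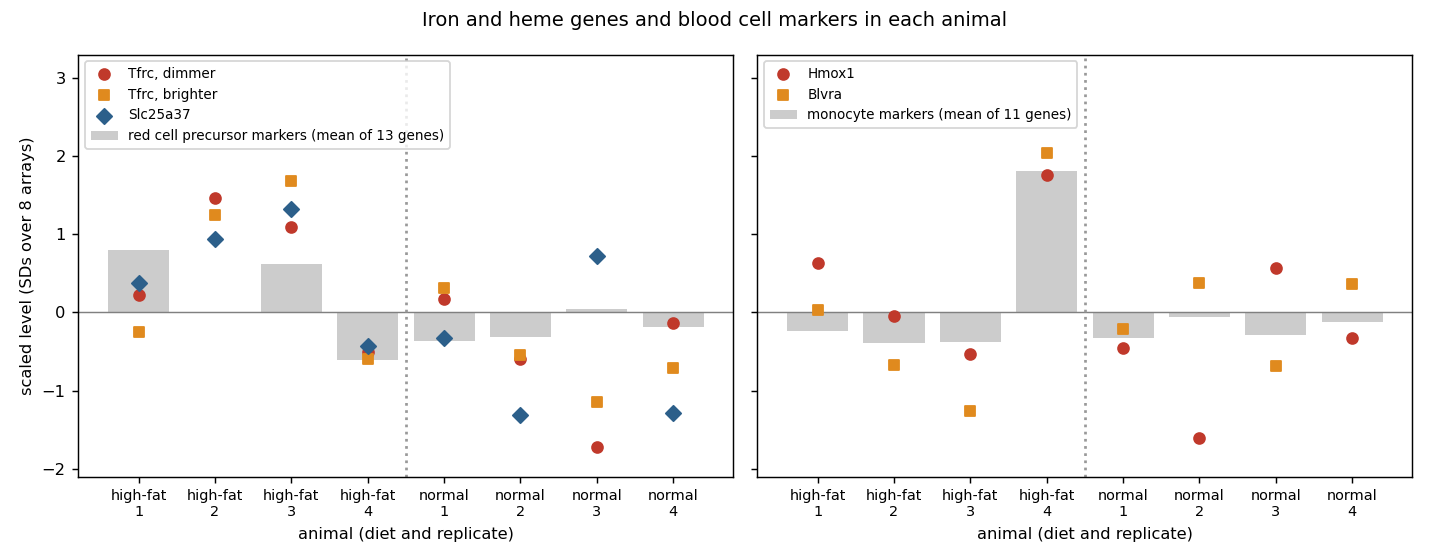
Scaled level (vertical axis, SDs over the 8 arrays) in each animal, high-fat animals left of the dotted line and normal animals right of it. Grey bars are the mean of 13 red cell precursor markers (left panel) or 11 monocyte markers (right panel) and symbols are single probe sets. In high-fat animal 4 the monocyte bar is at 1.81 with Blvra at 2.04 and Hmox1 at 1.76, and the red cell bar is at -0.61.

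The genes whose pattern over the 8 animals was most like each iron gene were named by distance of scaled levels. For Tfrc these were Coq10a, a coenzyme Q binding protein of mitochondria, at 0.147 SDs and Wbp1l at 0.185. For Slc25a37 they were Nusap1, a protein of the mitotic spindle, at 0.175 and F2rl3, a thrombin receptor, at 0.211. Blvra was nearest to Ggh, a hydrolase of folate polyglutamates, at 0.105 and to the G protein subunit Gngt2 at 0.128. Hmox1 was nearest to the growth factor receptor Pdgfrb at 0.196 and to Hmbox1 at 0.263. The closest to Ireb2 were the lipoprotein receptor Lrp8 at 0.271 and Camsap1 at 0.278, and to Slc11a2 the transcription factor Tead3 at 0.248 and the fatty acid binding protein Fabp12 at 0.257. The median distance from these 6 genes to all probe sets was 1.06 to 1.12. The order rests on 8 animals and was not tested.

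Other genes of iron and heme handling were read through 56 measured genes in 7 lists, each by its brightest probe set. None passed the adjusted p by limma. In high-fat blood 33 stood higher and 23 lower, and 58.9% higher compares with 47.4% of all 14217 genes. Iron uptake and reduction had 7 of 11 genes higher (median 0.190 within-group SDs). Its smallest p belonged to Cybrd1, a ferric reductase, at 0.630. The storage and chaperone list had 2 of 3 higher (median 0.350). Ncoa4, which delivers ferritin for breakdown, had a level of 12.98 and stood at 0.895. Iron sensing and systemic control had 2 of 7 higher (median -0.108), with Epas1, a hypoxia-inducible factor subunit, at -0.712.

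Mitochondrial iron and iron-sulfur cluster genes had 3 of 11 higher and a median of -0.272 within-group SDs, with the assembly factor Lyrm4 at 0.883. In the list of heme breakdown and transport, 9 of 12 genes were higher (median 0.223), and haptoglobin, Hp, which binds free hemoglobin, stood at 0.954. High-fat animal 4 had the highest scaled level of that list, at 0.59, and the other animals lay between -0.19 and 0.16. Iron export and plasma iron binding had 3 of 4 higher (median 0.376), with the ferroxidase Heph at 1.30. Heme synthesis had 7 of 8 higher (median 0.555), with Urod, which decarboxylates uroporphyrinogen, at 2.0. After centring 4 of these 8 were higher (median -0.123), and 5 without high-fat replicate 1. For Urod all 4 high-fat animals lay above the normal ones, 1 such gene of the 56, against 1.32% of all genes and 1.44% of all probe sets. The median of the 6 iron genes themselves, each by its brightest probe set, was 1.07 within-group SDs, with 5 of 6 higher, and the difference between these lists was not tested.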

How the data were processed

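The 8 arrays were used through the table of log2 values as the authors deposited it, whose background correction, normalization and probe summary are not given in the sources used here. That they are log2 was read from their range. Of 31099 probe sets, 57 controls were left out. No pair of arrays held identical values (0 pairs). Gene names came from the platform annotation, with 1 symbol for 20826 probe sets, several for 436 and none for 9780, and all 8 probe sets described matched a GRCr8 gene by number. RefSeq promoter windows were searched for motifs, and coordinates are printed for Tfrc alone.

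Diets were compared with limma 3.58.1 in R 4.3.3 (lmFit, eBayes, two-sided, no covariates, Benjamini-Hochberg over 31042 probe sets, threshold 0.05). Single probe sets were also compared with an exact permutation test (70 assignments, two-sided, smallest possible p 0.0286). The labels call the arrays biological replicates, and each was taken as 1 animal. The code was tested on simulated data with the same means and within-group SDs. Shifts of 2 within-group SDs passed in 2 of 50 probe sets, shifts of 4 in 12, shifts of 8 in 46 and shifts of 16 in all 50. Another 12 calls were false, on probe sets with no shift. Differences of the size seen here, at most 1.62 within-group SDs, would thus rarely pass. Likeness was the mean absolute difference of scaled levels, and for a marker list its mean scaled level was scaled again by its own SD. The rule for named genes took all probe sets of the 7 genes that carry 1 symbol, the smallest p of each pathway list and of each marker list described, and the 2 nearest genes to each iron gene. Marker extremes (Hbb, Lyz2, Pf4, Ccr2, Sptb) and near single genes (Fcgr3a, Cd68, Slc4a1, Lrp1, Aco1, Nfe2l2, Hjv, Bach1) fall outside it and were chosen after their values were seen. Genes and lists were chosen with earlier results of these data known. Alternatives were centring, quantile normalization, eBayes with trend and robust, leaving out dim probe sets, array weights, a replicate block, leaving out each animal, and the mean over probe sets of a gene. Likeness and spread without each animal, and centring without high-fat replicate 4, were added after seeing the data.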

Additional observations from a re-analysis of the deposited data

How the results depend on the processing

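Number of arrays limits precision: the 95% intervals span several within-group SDs. No probe set of the 8 passed the adjusted p under any alternative run, and over all probe sets the count was 0 except for 32 (9 higher, 23 lower) with quantile normalization on top, which set 5 of the 8 differences, and 45.2% of all, to 0. Centring moved every difference by the same -66.0 millionths, which set the sign of every smaller positive difference. Centring each array put the differences of Tfrc at -59.8 (dimmer probe set) and -42.9 (brighter) millionths, Slc25a37 at -18.6, Ireb2 at -56.5, Hmox1 at -39.0 and Blvra at -11.0. It left 4 of the 56 pathway genes higher, and separated the diets in 2 of the 8 probe sets, both of Slc11a2 and both lower, as in 50.1% of all. Without high-fat replicate 4 the centring shift was -31.3 millionths, and 1 of the 8, Slc25a37, was then higher, as were 1.91% of all. Quantile normalization put Slc25a37 at -38.1. Array weights put the brighter Slc11a2 probe set at 0.00862 and Blvra at -58.6. Leaving out 1 animal moved these from -1.03 to 0.363 and from -481.4 to 401.1, and the count of separated probe sets from 0 to 1: the dimmer Tfrc probe set without high-fat replicate 4 (3.10% of all) or Ireb2 without normal replicate 3. With the replicate block 0 probe sets passed. Same-numbered animals deviated with correlations of -0.121, 0.198, 0.355 and 0.140, and 5 of 8 were closest to their own number, which leans towards shared numbers. The numbers were not taken as pairs, since 1 of 4 correlations was not over 0.1 and no label ties the animals. The cause of these shifts was not tested.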

Other observations

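Other iron and heme genes lay near Blvra over the 8 animals, all with their highest value in high-fat animal 4. They were picked with their values known and carry no test. Lrp1, a receptor that clears heme bound to hemopexin, differed from Blvra by 0.348 SDs of scaled level on average (0.857% of probe sets closer), Aco1, the cytosolic aconitase that doubles as an iron regulatory protein, by 0.352 (0.892%), and Nfe2l2, a transcription factor of the oxidative stress response, by 0.420 (1.67%). Without that animal the distances were 0.648 (8.89%), 0.654 (9.16%) and 0.760 (15.9%). Hjv, a cofactor of hepcidin control, differed by 0.302 from the brighter Slc11a2 probe set (0.029% closer), and Bach1, a heme-sensing repressor, by 0.426 from the dimmer one (0.467%). Leaving out each animal gave 0.0226% to 0.161% for Hjv and 0.226% to 3.22% for Bach1, the highest without normal replicate 4.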
